A study of Mus musculus with 16 samples.

Results

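Mapk14, which encodes the stress-activated kinase p38α, gave very different signals among 8 arrays of sorted mouse mammary luminal cells that carried no oncogene. These 8 arrays, of 16 in the series, were divided by that signal. The 4 arrays with a log2 signal of 7 or more on 1 of the Mapk14 probe sets form the Mapk14-high side and the 4 below 7 form the Mapk14-low side. The sides were thus defined by a measured value and not by a label, so every difference below is an association with that value, and the Mapk14 values themselves are given as a description without a test.

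Luminal cells had been sorted from mammary glands by flow cytometry, and total RNA was hybridised to 1-colour Affymetrix arrays. The 8 arrays came from mice 9 weeks old of the genotypes MMTV-Cre and p38a_MMTV-Cre, with 4 arrays each. The other 8 arrays came from mice 6 weeks old of the genotypes MMTV-Cre_PyMT and p38a_MMTV-Cre_PyMT, again with 4 each. All 16 therefore carried the MMTV-Cre transgene, in which a mammary tumour virus promoter active in mammary epithelium drives the Cre recombinase. The p38a genotypes add a loxP-flanked p38α gene that Cre can cut, and PyMT adds the polyoma middle T oncogene under the same promoter. The labels do not say which cells of the sorted population had undergone recombination or whether an array held 1 or several mice, so the spread between arrays may be in part technical. Arrays of a genotype are numbered here in deposit order, and the numbers pair nothing.

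Each side held 2 arrays of each genotype. The Mapk14-high side held MMTV-Cre 1 and 2 with p38a_MMTV-Cre 3 and 4, and the Mapk14-low side held MMTV-Cre 3 and 4 with p38a_MMTV-Cre 1 and 2. Values of a side are listed below in that order. The number in each sample title falls in a lower or a higher range, and each genotype changed side with it: MMTV-Cre arrays of the lower range were Mapk14-high, whereas p38a_MMTV-Cre arrays of the lower range were Mapk14-low. The sides are therefore balanced for genotype and for title range, whereas the difference of the split between the genotypes cannot be told apart from title range.

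p38α is a MAP kinase that is switched on by the upstream kinases Map2k3 and Map2k6 in response to stress and cytokines. It acts through the MAPKAP kinases, the MSK and MNK kinases and transcription factors such as Atf2 and the Mef2 family. In epithelia it is known for restraining proliferation and for a part in differentiation and survival, and its gene is often deleted with Cre to study these roles.

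On the probe set that defined the sides, the Mapk14-high arrays gave log2 signals of 7.11, 7.43, 7.91 and 8.16. The Mapk14-low arrays gave 5.55, 6.02, 6.79 and 6.37. The arrays nearest to the threshold were MMTV-Cre 1 inside it at 7.11 and p38a_MMTV-Cre 1 outside it at 6.79. The 2 highest values both came from arrays labelled p38a_MMTV-Cre and the 2 lowest from arrays labelled MMTV-Cre, so this probe set went against the genotype labels there. In the lower title range it followed them, with both MMTV-Cre arrays above both p38a_MMTV-Cre arrays, and in the higher range the order was the opposite. The genotypes are named below as labelled. Which exons the Mapk14 probe sets cover, and whether these were the deleted ones, was not analysed here.

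The array holds 6 probe sets named Mapk14, and they did not all follow the split. A second probe set also separated the sides, with 6.84, 6.77, 6.68 and 7.21 on the Mapk14-high arrays and 5.91, 6.08, 6.62 and 6.27 on the Mapk14-low arrays. For 1 further probe set the mean was 5.85 against 5.03, but the arrays overlapped. For the remaining 3 the Mapk14-high mean was lower by 0.02 to 0.16. The 8 arrays with PyMT lay much closer together on the probe set that defined the sides, over a log2 range of 0.77 against 2.60 in the 8 without it, and 7 of the 8 were at or above 7.

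**Figure D1:**
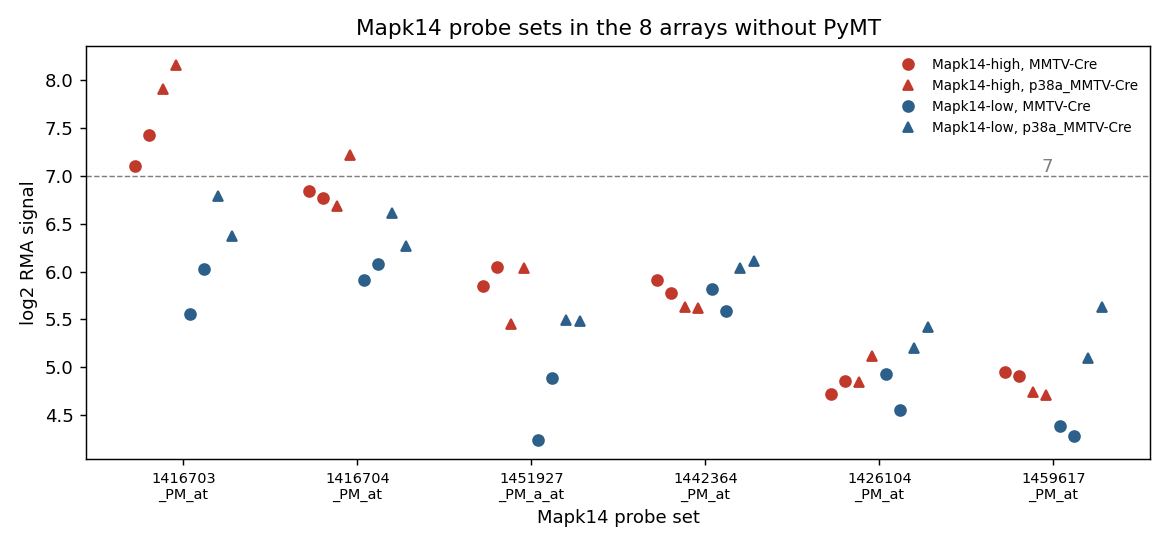
Log2 RMA signal of the 6 Mapk14 probe sets in the 8 arrays without PyMT, 1 point per array, red for Mapk14-high and blue for Mapk14-low, circles for MMTV-Cre and triangles for p38a_MMTV-Cre. The leftmost probe set, which defined the sides at the dashed line (log2 signal of 7), and the one beside it separate the colours, and the other 4 do not.

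Several properties of whole arrays also separated the sides, and their part in the results below was not tested. Counts of calls after a second quantile normalisation are given in the last section. The array median was 4.64 to 4.68 (log2) on the Mapk14-high side and 4.69 to 4.88 on the Mapk14-low side. The SD of all probe set values within an array was 2.01 to 2.05 against 1.90 to 1.99, so the Mapk14-low arrays had a narrower spread of signals. The first principal component, with 32.3% of the variance, ran from -33 to -11.1 on the Mapk14-high side and from -2.4 to 53.6 on the other. MMTV-Cre 2 on the second component and p38a_MMTV-Cre 2 on the first lay furthest from the other arrays. On the first, p38a_MMTV-Cre 2 was at 53.6, p38a_MMTV-Cre 1 at 33.9 and MMTV-Cre 3 next at 11.9. The mean correlation with the other arrays of the series was 0.915 in p38a_MMTV-Cre 2, 0.925 in p38a_MMTV-Cre 1 and 0.929 in MMTV-Cre 2. Fits without MMTV-Cre 2 and p38a_MMTV-Cre 2 thus kept p38a_MMTV-Cre 1. The difference between the 3′ and 5′ control probe sets of Actb, a sign of RNA integrity, followed title range and not the side: it was -0.54 to -0.50 in the lower range and -0.11 to 0.10 in the higher range. No 2 arrays held identical values.

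The arrays carried the markers of luminal cells on both sides. The luminal keratin genes Krt8 and Krt18 gave 12.14 to 12.28 and 11.91 to 12.28 over the 8 arrays, and Epcam, an epithelial adhesion gene, 10.93 to 11.65. Their differences between the sides were -0.02, -0.09 and -0.09. Other luminal genes differed more. Of the 20 tested genes of the luminal epithelium list, 12 had a higher mean on the Mapk14-high side and 8 a lower one, with a median difference of 0.265. Cldn7 and Krt19 differed by 0.446 and 0.432 with overlapping arrays. In the fit without MMTV-Cre 2 and p38a_MMTV-Cre 2, 10 of the 20 were higher and the median was -0.003. The myoepithelial keratin Krt5 was not uniform, at 8.37, 7.86, 9.05 and 9.61 on the Mapk14-high side and 6.79, 9.74, 6.30 and 6.68 on the Mapk14-low side. MMTV-Cre 4 on the Mapk14-low side was the highest of all, so the sides overlapped. In these bulk samples, more cells of a type and more RNA per cell cannot be told apart.

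Across 14409 genes tested with limma, 1 gene differed between the sides at a Benjamini-Hochberg adjusted p below 0.05. That gene, Trpm6, was lower in the Mapk14-high arrays. The calls made up 0% of the genes tested on the higher side and 0.00694% on the lower side. In all, 588 genes had an adjusted p below 0.10, of which 480 were higher and 108, Trpm6 included, were lower. At an unadjusted p below 0.05 there were 2443 genes, where 720 would be expected if no gene differed. Genes measured on the same arrays are not independent, so this comparison is a description and not a test. The direction over all genes was close to even, with 51.7% higher and 48.3% lower in the Mapk14-high arrays and a median log2 difference of 0.01. Larger differences ran mostly one way, with 408 genes more than 1 log2 unit higher and 133 more than 1 unit lower.

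A wider view counts genes whose 4 Mapk14-high arrays all lay above, or all below, the 4 Mapk14-low arrays. All 4 lay above for 1115 genes (7.74% of those tested) and below for 465 (3.23%). These shares are the background for the gene groups below. Of the genes with non-overlapping arrays, many are represented by further probe sets that were not used in the test. Among the higher genes, 511 of 667 such probe sets (76.6%) also had a higher mean on the Mapk14-high side, beside 51.8% of the further probe sets of all tested genes. Among the lower genes, 312 of 352 (88.6%) had a lower mean.

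Trpm6 encodes a magnesium channel fused to a kinase. Its log2 signal was 5.75, 5.19, 5.59 and 5.65 in the Mapk14-high arrays and 7.35, 7.49, 7.71 and 7.34 in the Mapk14-low arrays. The lowest Mapk14-low array, at 7.34, was well above the highest Mapk14-high array, at 5.75. The log2 difference was -1.92 ± 0.17 (SE, n = 4 against 4), or 3.80-fold lower in the Mapk14-high arrays, with a limma adjusted p of 0.0462. The difference was -1.95 within arrays labelled MMTV-Cre and -1.91 within those labelled p38a_MMTV-Cre. A second probe set for Trpm6 was lower by 0.83. The call rests near its threshold: it was lost in 12 alternatives, with an adjusted p of 0.2 without MMTV-Cre 3 and 0.117 without MMTV-Cre 2 and p38a_MMTV-Cre 2.

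The 9 genes of next smallest p on the lower side did not pass the adjusted threshold. Each had arrays that did not overlap between the sides, and each had a limma adjusted p of 0.0542 or 0.0566. Phip, which encodes a bromodomain protein, gave 7.97, 7.66, 8.66 and 8.59 in the Mapk14-high arrays and 9.06, 9.62, 10.70 and 10.09 in the Mapk14-low arrays, a difference of -1.65 ± 0.20. Nipbl, the loader of cohesin onto chromosomes, gave 8.07, 8.32, 7.75 and 8.25 against 9.65, 9.23, 9.84 and 9.38, a difference of -1.43 ± 0.20. In both genes the highest value came from p38a_MMTV-Cre 1.

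Tut4, a uridylyltransferase that acts on microRNA precursors, gave 5.46, 5.25, 5.73 and 5.45 against 6.71, 6.59, 7.64 and 6.89. Thoc2, a subunit of the mRNA export complex THO, gave 7.12, 7.80, 7.70 and 8.01 against 9.22, 9.09, 9.73 and 8.82. The splicing factor gene Mbnl1 gave 9.44, 9.28, 9.31 and 9.53 against 10.25, 10.30, 10.60 and 10.20. The sides did not overlap in any of the 3, although Tut4 and Thoc2 also varied widely within a side. The log2 differences were -1.49 for Tut4, -1.56 for Thoc2 and -0.95 for Mbnl1. Srek1, another splicing regulator, differed by -1.01. The remaining genes were Marchf7, a RING ubiquitin ligase, at -1.87, the zinc finger gene Zfp280d at -1.38, and Tmpo, a lamina-associated protein of the nuclear envelope, at -1.02. All measured probe sets of these 9 genes had the same sign, including 8 for Phip and 5 each for Nipbl and Marchf7.

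The 10 genes of smallest p on the higher side all had an adjusted p of 0.0542, so none passed. Cdkn3, a phosphatase that acts on the cell cycle kinase Cdk2, gave 7.02, 7.30, 6.68 and 7.80 in the Mapk14-high arrays and 4.72, 5.16, 4.79 and 5.19 in the Mapk14-low arrays. Its difference of 2.24 ± 0.26, or 4.72-fold, was nearly the same within both genotypes, at 2.22 and 2.25. Knstrn, a spindle and kinetochore protein, gave 7.52, 7.32, 8.07 and 8.31 against 5.47, 6.28, 6.27 and 6.06, a difference of 1.78 ± 0.22. Both genes thus act in cell division, and for both the highest array was p38a_MMTV-Cre 4.

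The other 8 had more varied roles. Prkar2a, a regulatory subunit of protein kinase A, gave 7.57, 7.61, 7.58 and 7.74 against 6.30, 6.73, 6.41 and 6.38. Its Mapk14-high arrays had an SD of 0.08, the smallest among the 10. Man2b1, the lysosomal α-mannosidase, gave 7.80, 8.44, 7.57 and 7.93 against 6.18, 6.49, 6.41 and 6.50. Their differences were 1.17 and 1.54. Nrm, which encodes the nuclear membrane protein nurim, differed by 1.33, and Mettl27 by 1.32. Fbxw8, a substrate adaptor of a cullin ubiquitin ligase, differed by 1.31, and Gstt3, a glutathione transferase, by 1.47. Pex19, which delivers membrane proteins to peroxisomes, differed by 1.01. Inava differed by 1.02, but MMTV-Cre 3 on the Mapk14-low side, at 5.75, reached the level of the p38a_MMTV-Cre arrays of the Mapk14-high side, at 5.75 and 5.67. The probe sets of 2 of these genes disagreed: 1 of 4 for Prkar2a and 1 of 3 for Pex19 had the opposite sign. The only other probe set of Inava differed by 0.09. When the probe sets of each gene were averaged instead, the differences were 0.52 for Prkar2a, 0.39 for Pex19 and 0.56 for Inava.

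**Figure D2:**
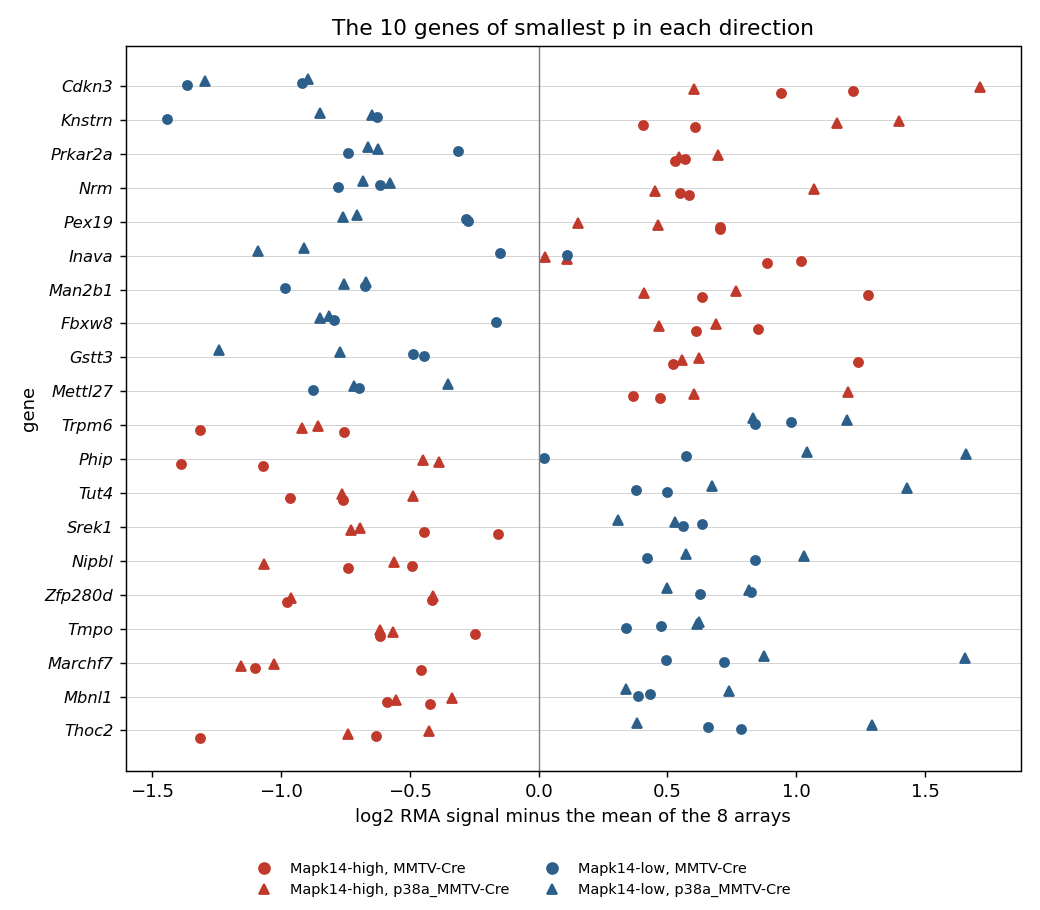
Log2 RMA signal of the 10 genes of smallest p in each direction, each minus its mean over the 8 arrays, 1 point per array, coloured by side with a shape for each genotype label. The colours do not overlap for 19 of the genes, and for Inava MMTV-Cre 3 lies among the Mapk14-high arrays.

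The genes of mitosis had the largest median difference among the 32 gene lists examined. These lists were drawn up with earlier results of these data known, so their counts are descriptions. The G2/M and mitosis list names 40 genes, of which 37 passed the filter on low signals, and 1 of these 37 had a Mapk14-low mean below the filter value. None was called. The mean was higher on the Mapk14-high side for 36 of the 37, and the arrays did not overlap for 21 (56.8%), all in the higher direction, beside 7.74% of all tested genes. The median log2 difference was 1.27, beside 0.01 over all tested genes.

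Cenpa, the histone H3 variant of centromeres, gave 7.88, 8.05, 8.02 and 9.01 in the Mapk14-high arrays and 5.60, 6.30, 6.17 and 5.16 in the Mapk14-low arrays. Its difference of 2.43 ± 0.34 was 5.40-fold, with a limma adjusted p of 0.0542. A second probe set for Cenpa differed by 0.14. Aurka, a kinase of the spindle poles, gave 7.54, 7.65, 7.35 and 7.80 against 5.73, 6.45, 6.37 and 6.11, a difference of 1.42 ± 0.20 with an adjusted p of 0.0542. Birc5, the survivin subunit of the chromosomal passenger complex, gave 7.33, 7.77, 7.16 and 8.18 against 4.92, 6.20, 5.60 and 5.61, a difference of 2.03 ± 0.32 with an adjusted p of 0.0566. In Cenpa and Birc5 the highest Mapk14-high array was p38a_MMTV-Cre 4 and the highest Mapk14-low array was MMTV-Cre 4.

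The same complex holds Aurkb and Cdca8, which differed by 1.71 and 2.46, and Kif20a, a kinesin of cytokinesis, differed by 1.28. The mitotic cyclin Ccnb2, its kinase Cdk1 and the activator of the anaphase-promoting complex Cdc20 differed by 1.99, 1.72 and 1.90. The arrays of all 6 of these genes did not overlap. Not every member was of this size. Mki67, a widely used proliferation marker, gave 6.10, 6.86, 6.52 and 7.92 against 5.34, 6.86, 6.67 and 5.12, so the sides overlapped. Foxm1, a transcription factor of mitotic genes, differed by 0.34, and Cenpe by -0.06.

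As a list mean, the 37 G2/M genes gave 6.67, 6.74, 6.56 and 7.44 in the Mapk14-high arrays and 5.41, 6.24, 5.70 and 5.30 in the Mapk14-low arrays. The side means were 6.85 ± 0.40 and 5.66 ± 0.42 (SD, n = 4 each). Every Mapk14-high array lay above every Mapk14-low array, with MMTV-Cre 4 the nearest from below. The difference was 0.88 within arrays labelled MMTV-Cre and 1.50 within those labelled p38a_MMTV-Cre. Within the lower title range it was 1.21 and within the higher range 1.18. Without MMTV-Cre 2 and p38a_MMTV-Cre 2, 36 of the 37 members were higher in the fit and 25 (67.6%) did not overlap, beside 15.5% of all tested genes. The myoepithelial marker list moved with it in part: its mean was 6.09, 5.46, 6.18 and 6.46 against 5.36, 6.68, 5.10 and 5.62, and its part in the difference was not tested.

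The promoters of cell division genes are known to carry short elements that couple them to the cycle: the CCAAT box bound by NF-Y and the CHR, whose core is TTTGAA. The promoters of Cdkn3, Cenpa and Aurka are shown because they hold both sets of letters. Each is the RefSeq GRCm38.p6 sequence from 250 bases before to 50 after the transcription start, written 5′ to 3′ on the strand of the gene, with CCAAT or its reverse ATTGG and TTTGAA or its reverse TTCAAA in capitals. They lie at chr14:46760291-46760590 on the plus strand for Cdkn3, chr5:30666636-30666935 on the plus strand for Cenpa and chr2:172370521-172370820 on the minus strand for Aurka.
Cdkn3: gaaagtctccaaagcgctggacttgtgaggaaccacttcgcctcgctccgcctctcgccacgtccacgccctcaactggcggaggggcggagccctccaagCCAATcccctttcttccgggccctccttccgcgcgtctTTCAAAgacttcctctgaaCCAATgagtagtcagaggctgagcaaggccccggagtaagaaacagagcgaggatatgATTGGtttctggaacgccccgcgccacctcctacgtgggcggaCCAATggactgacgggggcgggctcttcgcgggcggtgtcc
Cenpa: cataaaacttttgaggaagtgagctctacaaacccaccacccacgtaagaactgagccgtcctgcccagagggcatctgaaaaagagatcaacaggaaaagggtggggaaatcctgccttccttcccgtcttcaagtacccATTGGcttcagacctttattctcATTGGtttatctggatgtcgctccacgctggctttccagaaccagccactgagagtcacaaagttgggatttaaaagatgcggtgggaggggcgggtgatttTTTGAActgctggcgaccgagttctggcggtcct
Aurka: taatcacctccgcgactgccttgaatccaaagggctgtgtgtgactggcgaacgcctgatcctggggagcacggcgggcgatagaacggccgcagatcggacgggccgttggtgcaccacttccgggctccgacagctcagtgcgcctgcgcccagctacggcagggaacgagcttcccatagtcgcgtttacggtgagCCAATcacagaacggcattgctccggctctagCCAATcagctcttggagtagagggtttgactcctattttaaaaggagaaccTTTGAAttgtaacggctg

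Cdkn3 held 4 matches to CCAAT on either strand, and Cenpa and Aurka held 2 each, with 1 match to TTTGAA in each of the 3. The window of Birc5 held neither set of letters, and matches for Kif20a alone were not listed. Of the 33 promoters found for 32 of the tested G2/M genes, 25 (75.8%) held CCAAT and 24 (72.7%) held TTTGAA, and 63.6% held both. Of all 32851 promoters in the table, 37.4% held CCAAT, 17.9% held TTTGAA and 6.95% both. Of the 14594 promoters of tested genes, 36.8% held CCAAT, 12.6% TTTGAA and 4.88% both. Among promoters of the genes whose Mapk14-high arrays were all higher, 40.4% held CCAAT and 14% TTTGAA. A match of letters is a description of the list and not a binding site.

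Genes of the G1/S transition and DNA replication showed a smaller difference of the same sign. Of 38 listed genes, 32 were tested and 29 had a higher mean on the Mapk14-high side. The arrays did not overlap for 14 (43.8%), beside 7.74% of all tested genes, with none in the lower direction and none called. The median log2 difference was 0.96. Gins2, a subunit of the replicative helicase, gave 8.47, 8.39, 8.02 and 8.27 in the Mapk14-high arrays and 7.19, 7.69, 7.24 and 7.21 in the Mapk14-low arrays, with a limma adjusted p of 0.0566. Tk1, the thymidine kinase of the S phase, gave 7.04, 7.55, 6.30 and 7.30 against 4.78, 6.02, 5.17 and 5.68. The differences were 0.96 ± 0.15 and 1.64 ± 0.34, and the sides did not overlap in either gene. Gins1 and the mismatch repair gene Msh6 differed by 1.09 and 0.97.

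The helicase subunits Mcm2, Mcm3 and Mcm5 differed by 1.30, 1.08 and 1.85, with arrays that did not overlap, whereas those of Mcm4, Mcm6 and Mcm7 overlapped at differences of 0.98, 0.75 and 1.17. The transcription factors E2f1 and E2f2, which drive the G1/S genes, differed by -0.01 and 0.06, and Ccne1 by -0.21. The list mean was 6.97, 6.60, 6.66 and 6.86 against 5.73, 6.47, 6.01 and 5.57, where MMTV-Cre 4 again came nearest to the other side. Of the 30 promoters of this list, 76.7% held CCAAT, 10% TTTGAA and 33.3% the E2F letters GCGGGAAA or GCGCCAAA on either strand. None of the 33 G2/M promoters held the E2F letters, beside 1.56% of all promoters and 2.4% of those of tested genes.

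The D-type cyclins, their kinases and the cell cycle inhibitors had smaller and mixed differences, with a median of 0.15. Of 18 tested, 11 had a higher mean and 1 did not overlap, which is 5.56% beside 7.74% of all tested genes. That gene was Cdk4, the kinase partner of the D cyclins, at 10.41, 10.04, 10.11 and 10.19 against 9.40, 9.75, 9.25 and 8.92. It differed by 0.86 ± 0.18 with a limma adjusted p of 0.0783. The inhibitors Cdkn2c and Cdkn2d differed by 0.42 and 0.71 with overlapping arrays, and Cdk2 by 0.49. The cyclins Ccnd1, Ccnd2 and Ccnd3 differed by -0.25, -0.11 and 0.36. The list mean was nonetheless 7.35, 7.42, 7.35 and 7.47 against 7.23, 7.26, 7.24 and 7.33, so the sides did not overlap, with a difference of 0.14 within MMTV-Cre and 0.13 within p38a_MMTV-Cre. Cdkn1a, the p21 inhibitor, which lies near Mapk14 on its chromosome, differed by 0.38 ± 0.42.

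**Figure D3:**
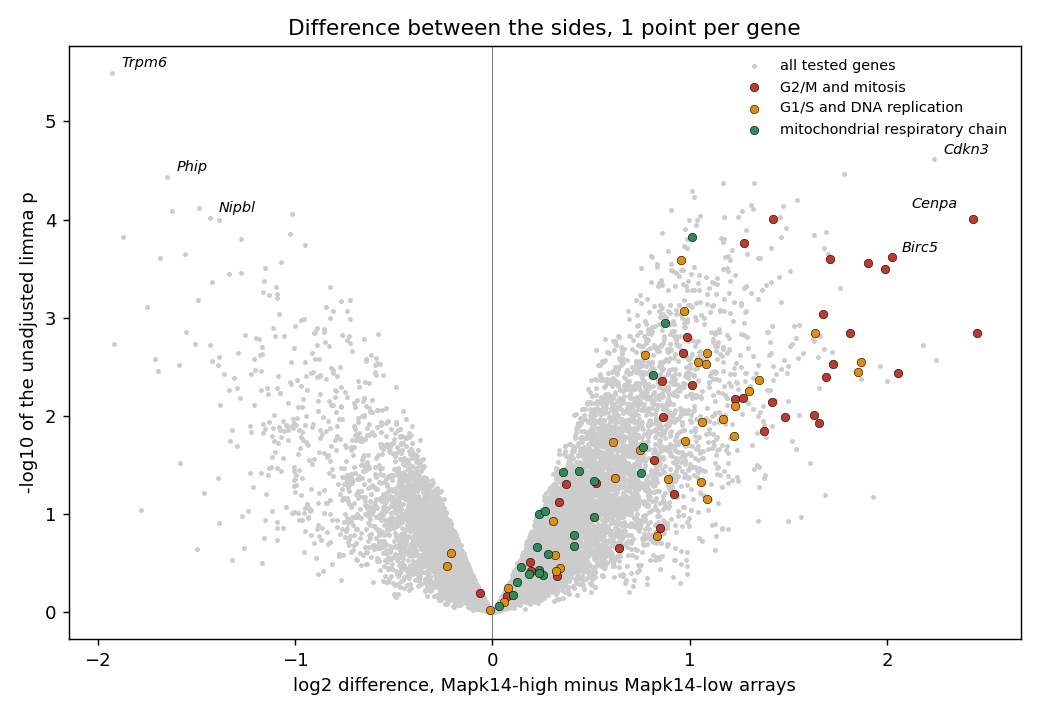
Log2 difference (Mapk14-high minus Mapk14-low arrays) of the 14409 tested genes on the horizontal axis against −log10 of the unadjusted limma p on the vertical axis, 1 point per gene. Members of the G2/M list (red) lie almost wholly right of 0, with a median of 1.27, and the respiratory chain (green) lies right of 0 at smaller differences.

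The mitochondrial respiratory chain had small differences that all pointed the same way. All 23 tested members, of 24 listed, had a higher mean on the Mapk14-high side, beside 51.7% of all tested genes. The arrays did not overlap for 6 (26.1%), beside 7.74% of all tested genes, and none was called. The median log2 difference was 0.28. Uqcrc1, a core subunit of complex III, gave 9.35, 9.27, 9.12 and 9.10 against 8.50, 8.61, 7.84 and 7.82, a difference of 1.01 ± 0.15 with a limma adjusted p of 0.0542. Sdhc of complex II gave 7.62, 7.81, 7.47 and 7.78 against 6.41, 6.79, 7.11 and 6.88, and Ndufa9 of complex I differed by 0.81. For Sdha, a second subunit of complex II, the arrays overlapped at a difference of 0.76. The list mean was 9.97 to 10.19 in the Mapk14-high arrays and 9.51 to 9.85 in the Mapk14-low arrays, and the difference was 0.18 within MMTV-Cre and 0.62 within p38a_MMTV-Cre. Without MMTV-Cre 2 and p38a_MMTV-Cre 2, 22 of the 23 were higher in the fit, beside 8449 of all 14409 tested genes.

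Other programmes of a cell were mixed in direction or differed little. Cytosolic ribosomal proteins had 6 of 16 members higher, a median difference of -0.02 and list means of 11.79 on both sides. The unfolded protein response had 12 of 23 members higher and a median of 0.04, and without MMTV-Cre 2 and p38a_MMTV-Cre 2 it had 6 of 23 higher in the fit and a median of -0.15. Heat shock genes had 6 of 14 higher and immediate early genes 10 of 23. Of the 23 immediate early genes, 2 did not overlap, both lower, beside 3.23% of all tested genes. They were Ier5 at -0.56 and Fosl1 at -0.73, and Fos differed by 0.94 with overlapping arrays. Cholesterol synthesis genes had 9 of 14 higher, interferon-stimulated genes 7 of 16, p53 targets 12 of 17, extracellular matrix genes 12 of 19 and proteasome subunits 16 of 21. Members of these lists without overlap were the p53 target Gtse1 at 0.64, the laminin gene Lamc1 at 0.80 and the proteasome subunits Psma5 and Psmc4 at 0.42 and 0.27, and among ribosomal proteins Rps14 at -0.06. The shares higher without overlap were 5.88% of p53 targets, 5.26% of matrix genes and 9.52% of proteasome subunits, beside 7.74% of all tested genes. The extracellular matrix list had 18 of 19 members higher in the fit without the same 2 arrays, with a median of 0.43 beside 0.11 with them. In that fit, 8449 of all 14409 tested genes were higher. Glycolysis and hypoxia genes had 11 of 19 higher, or 5 of 19 without the same 2 arrays. Beside 7.74% of all tested genes, 3 of them (15.8%) were higher without overlap in the 8 arrays. They were Hk1, Pdk1 and Ndrg1. Hk1, a hexokinase, gave 9.59, 10.59, 8.99 and 9.44 against 8.71, 8.60, 8.06 and 8.20. Pdk1, a kinase that inhibits pyruvate dehydrogenase, differed by 0.83 and Ndrg1 by 0.43. Further probe sets differed by 0.47 for Hk1, beside 1.26 for that used, and by as little as 0.52 for Pdk1.

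The NF-κB and inflammation list leaned to the Mapk14-low side through 2 arrays. Of 19 tested members, 17 had a lower mean in the Mapk14-high arrays, with a median of -0.32, and none was called or free of overlap. The list mean was 7.84 and 8.03 in p38a_MMTV-Cre 1 and 2, and 6.74 to 7.25 in the other 6 arrays. Cxcl1, a neutrophil-attracting chemokine, showed this most plainly, at 5.68, 5.61, 5.75 and 6.06 against 5.45, 5.65, 8.66 and 8.26. Its difference was 0.10 within MMTV-Cre and -2.55 within p38a_MMTV-Cre. Cxcl2 differed by -0.04 and -2.21 in the same way. Without MMTV-Cre 2 and p38a_MMTV-Cre 2, the list had 5 of 19 members higher in the fit and a median of -0.18.

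The other genes of the p38 pathway were mixed in direction. Of 20 tested kinases, activators and adaptors, 12 had a higher mean in the Mapk14-high arrays, and none was called. In that direction 3 (15%) did not overlap, beside 7.74% of all tested genes. In the other direction 1 did not overlap, beside 3.23% of all tested genes. The median difference was 0.07. Mapk12, which encodes p38γ, gave 7.97, 8.60, 7.81 and 8.12 against 6.86, 7.76, 7.59 and 6.77, a difference of 0.88 ± 0.28 with a limma adjusted p of 0.159. Mapk13, which encodes p38δ and is a neighbour of Mapk14, gave 8.98, 9.07, 8.27 and 8.57 against 8.74, 8.63, 8.21 and 8.96, a difference of 0.09 ± 0.20. Mapk11, which encodes p38β, did not pass the filter on low signals. The sides thus separated for Mapk12 and overlapped for Mapk13.

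The activating kinases Map2k3 and Map2k6 differed by 0.03 and 0.41 with overlapping arrays. Map2k4, an activator of JNK that can also phosphorylate p38, gave 7.55, 7.49, 6.48 and 6.43 against 7.71, 7.64, 8.24 and 8.21. Its difference of -0.96 ± 0.31 came mostly from the arrays labelled p38a_MMTV-Cre, with -1.77 there and -0.15 in MMTV-Cre. Tab1, an adaptor that can trigger p38α autophosphorylation, gave 6.47, 6.53, 6.35 and 6.64 against 5.92, 6.13, 5.65 and 6.33, a difference of 0.49 ± 0.18. Taok1, an upstream kinase, differed by -0.64 ± 0.15 with a limma adjusted p of 0.0908, the smallest of the list, although 2 of its 5 probe sets had the opposite sign. Taok3 differed by 0.35 without overlap.

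Genes downstream of p38 did not follow the split. Of 19 tested effectors and phosphatases, 9 had a higher mean, none was free of overlap and the median difference was -0.01. Mapkapk3, a substrate kinase of p38, gave 8.40, 7.96, 9.04 and 8.74 against 7.78, 8.19, 7.28 and 7.89, a difference of 0.75 ± 0.28. Mapkapk2, its closest relative, differed by 0.51 ± 0.34, with 1.36 in MMTV-Cre and -0.33 in p38a_MMTV-Cre. The transcription factor genes Creb1, Mef2a and Mef2d differed by -0.47, -0.62 and -0.75, and the p38 phosphatase gene Dusp1 by 0.05. The 12 tested genes that lie beside Mapk14 on its chromosome had 7 members higher, none free of overlap and a median of 0.06. Stk38 had the smallest p of these, with a difference of 0.70 ± 0.29 and a limma adjusted p of 0.282. Runx1, a transcription factor of mammary epithelium, gave 7.35, 6.65, 7.01 and 6.59 against 6.71, 6.83, 6.77 and 7.07. Its difference of 0.05 ± 0.20 turned negative with a second quantile normalisation, with a slope on Mapk14, and without MMTV-Cre 1 or MMTV-Cre 3. All 6 Runx1 probe sets were higher in the Mapk14-high arrays, by 0.05 to 0.72, and their mean differed by 0.42.

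**Figure D4:**
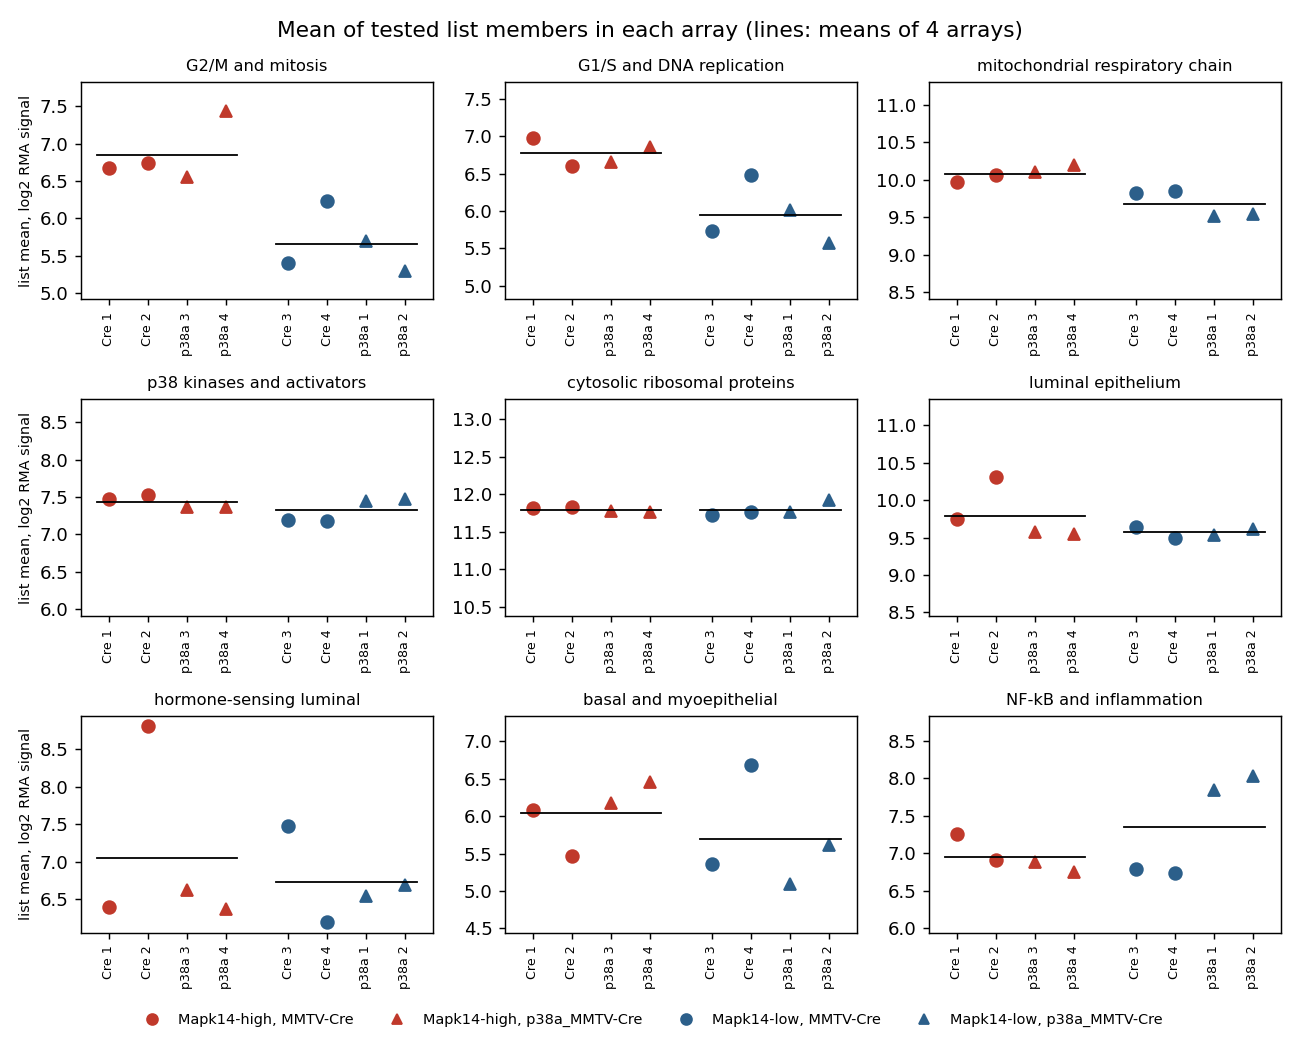
Mean log2 RMA signal of the tested members of 9 gene lists in each of the 8 arrays, Mapk14-high in red and Mapk14-low in blue, with a line at the mean of the 4 arrays of a side and a vertical axis of the same length in every panel. The sides do not overlap for the G2/M, G1/S and respiratory chain lists, 1 array (MMTV-Cre 2) is high for the hormone-sensing list, and 2 arrays (p38a_MMTV-Cre 1 and 2) are high for the inflammation list.

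Lineage markers of the luminal compartment overlapped between the sides, and 1 array stood apart in several of them. The luminal epithelium list had 12 of 20 members higher and side means of 9.79 and 9.57. The hormone-sensing list, which holds the estrogen receptor gene Esr1, had 12 of 14 members higher. Its list mean was 6.39, 8.81, 6.63 and 6.37 against 7.48, 6.19, 6.54 and 6.69, so MMTV-Cre 2 lay far above every other array. Esr1 itself gave 7.62, 10.71, 7.94 and 7.94 against 8.44, 6.71, 8.20 and 7.91. Without MMTV-Cre 2 and p38a_MMTV-Cre 2, 4 of the 14 were higher in the fit.

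The milk and alveolar list had 2 of 14 members higher and a median of -0.40, which became 0.02 without those 2 arrays. MMTV-Cre 2 was the lowest array in that list, at 7.63 beside 8.60 to 9.34 in the others. Csn1s1, a casein gene, gave 11.47, 8.99, 11.37 and 11.26 against 11.74, 11.06, 11.51 and 11.77. The luminal progenitor list had 5 of 15 members higher. Itga2, an integrin gene in that list, gave 6.41, 6.59, 6.38 and 6.43 against 7.14, 6.62, 7.02 and 7.78, and was the only member without overlap.

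Markers of cells outside the luminal gate did not separate the sides. The basal and myoepithelial list had 9 of 15 members higher and side means of 6.05 ± 0.42 and 5.69 ± 0.70. Its list mean differed by -0.24 within MMTV-Cre and by 0.96 within p38a_MMTV-Cre. In the fit without MMTV-Cre 2 and p38a_MMTV-Cre 2, 12 of the 15 were higher. Their median difference was then 0.38, beside 0.21 with all 8 arrays. Fibroblast markers had 5 of 10 higher, adipocyte markers 1 of 8, endothelial and pericyte markers 5 of 13 and macrophage and dendritic markers 4 of 15. Of the lymphoid markers, all 11 of T and NK cells and all 6 of B and plasma cells had lower means in the Mapk14-high arrays, by medians of 0.11 and 0.15 in size, with list means of 4.72 to 5.28 and 4.53 to 5.06 over the 8 arrays. Without MMTV-Cre 2 and p38a_MMTV-Cre 2, 4 of the 11 and 1 of the 6 were higher in the fit. Neutrophil markers had 1 of 7 higher, erythroid and platelet markers 4 of 4, and muscle and nerve markers 4 of 9. No member of these lists was free of overlap between the sides. The array medians given above were also lower on the Mapk14-high side, and their part in these differences was not tested.

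Gene length and signal level, which the split did not use, were compared for the genes that followed it. RefSeq gene spans were found for 99.8% of the genes whose Mapk14-high arrays were all higher, and their median span was 15.6 kb beside 20.6 kb for all tested genes. For the genes that were all lower it was 31.3 kb. Spans over 100 kb made up 6.83% of the higher set, 20% of the lower set and 12.3% of all tested genes. The 10 named lower genes span from 34.2 kb for Tmpo to 175 kb for Nipbl, with Trpm6 at 162 kb, and the 10 named higher genes from 5.09 kb for Nrm to 90.5 kb for Fbxw8. The median signal was also higher in the higher set, at 6.82, and lower in the lower set, at 5.34, beside 5.82 over all tested genes. These spans and levels are given as descriptions, and genes are not independent replicates.

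The 8 arrays with PyMT were not used to choose the sides, and the same relation was fitted there as a slope of each gene on the log2 signal of the same Mapk14 probe set with the genotype label as a covariate. No gene was called at an adjusted p below 0.05 in limma (0% of those tested), with 1667 at an unadjusted p below 0.05 and a smallest adjusted p of 0.213. The slope was positive for 46.5% of all tested genes. It was positive for 873 of the 1115 genes that were all higher in the Mapk14-high arrays (78.3%) and for 157 of the 465 that were all lower (33.8%). Without MMTV-Cre_PyMT 4, the array of lowest Mapk14 and narrowest spread among the 8, these shares were 69.5% and 31%, beside 44.8% of all tested genes.

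Among the 10 named higher genes, 7 had a positive slope, with a median of 0.78. It was 2.43 for Gstt3, 2.08 for Prkar2a, 2.07 for Fbxw8 and 1.75 for Man2b1, and it was -1.25 for Cdkn3, -1.38 for Knstrn and -0.28 for Nrm. The slope was also positive for 7 of the 10 named lower genes, against their direction without PyMT, among them Trpm6 with 0.49 and Phip with 2.09. Of the 37 G2/M genes, 6 had a positive slope and the median was -0.49. Without MMTV-Cre_PyMT 4, 4 of 37 were positive with a median of -0.88. Of the G1/S genes 11 of 32 were positive, and of the respiratory chain 14 of 23. The PyMT mice were younger and carried the oncogene, and their Mapk14 range was narrow, so the values of the 2 sets of arrays are given side by side only.

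**Figure D5:**
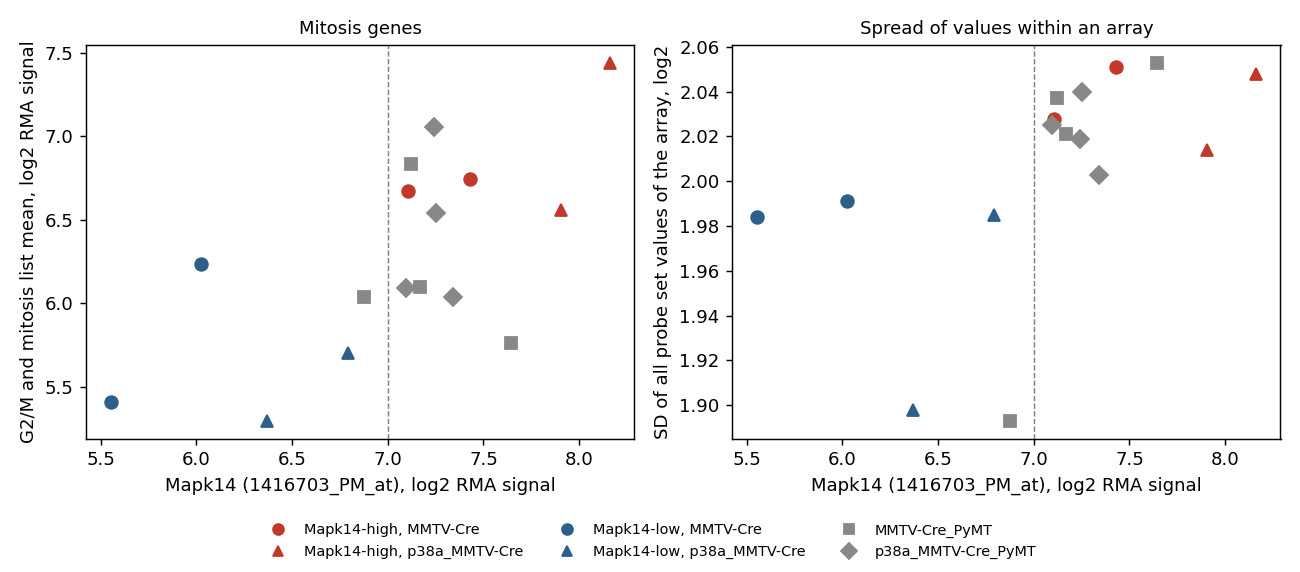
Mapk14 log2 RMA signal on the probe set that defined the sides in all 16 arrays (horizontal axes, dashed line at 7) against the mean of the 37 G2/M genes (left) and the SD of all probe set values of the array (right). Among the 8 arrays without PyMT (colours) both measures separate at the line, and the grey PyMT arrays span G2/M means from 5.76 to 7.06 over a Mapk14 range of 0.77.

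No gene was called for the genotype label among the 8 arrays. With the split in the fit, limma called 0 of 14409 genes (0%) between p38a_MMTV-Cre and MMTV-Cre, with 801 at an unadjusted p below 0.05 and a smallest adjusted p of 0.586. With the split left out it also called 0, with 543 at an unadjusted p below 0.05 and a smallest adjusted p of 0.935. The difference of the split between the genotypes, which cannot be told apart from title range, called 0 genes (0%) as well, with 1870 at an unadjusted p below 0.05 and a smallest adjusted p of 0.1.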

How the data were processed

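Log2 signals of 45141 probe sets in 16 arrays were used as the authors deposited them; RMA is named in the submitters' processing notes, and neither its version nor its settings are stated in the labels or files used here. Sequencing depth does not apply to these arrays, and each side held only 4 of them. Probe sets with 1 symbol in the platform annotation (28898; 551 had several and 15692 none) were updated through RefSeq names, and the probe set of highest mean over 16 arrays stood for a gene. Genes under the 25th percentile of mean signal (3.67) were left out, as were Mapk14 probe sets, which left 14409. limma 3.58.1 in R 4.3.3 fitted side and genotype label in 8 arrays (5 residual degrees of freedom), with Benjamini-Hochberg adjustment over all genes. On simulated data for this split, with independent noise for each gene, 50% of 2-fold and 90% of 4-fold changes were called. The simulation held no shifts shared by the genes of an array, so these shares need not hold for the real arrays. There, Cdkn3 at 4.72-fold and Cenpa at 5.40-fold were not called.

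The members, the gene lists and the tests were chosen with earlier results of these data known. Named genes are the 10 of smallest p in each direction, up to 4 members of smallest p of a list, Mapk14 and Runx1; others named were chosen after their values were seen. Accession-like names were passed over. Promoter letters were planned for called cell cycle genes; none was called, so they are given for list members. Alternatives changed the filter, the probe set rule, the normalisation, array weights, covariates, the split and single arrays.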

Additional observations from a re-analysis of the deposited data

Results flagged for a closer look

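In a group of 4 arrays, an array was picked out when its gap to the nearest other array passed Dixon's critical share of the group's range. This was examined in 64 groups and met in 4, where chance gives about 1 in 20. MMTV-Cre 2 accounted for 3 of them. Its hormone-sensing list mean was 8.81, beside 6.37 to 6.63 in the other Mapk14-high arrays. Its Gstt3 signal was 9.18, beside 8.46 to 8.56, and its Tmpo signal was 5.44, beside 5.07 to 5.12. On the Mapk14-low side, Fbxw8 was 8.53 in MMTV-Cre 3, beside 7.84 to 7.90 in the other arrays.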

How the results depend on the processing

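The count of called genes depended strongly on the settings. The 10 genes of smallest p in each direction kept their direction in all 21 alternatives. They were chosen by p in the same arrays, so this outcome was nearly fixed in advance. Higher and lower calls numbered 81 and 8 with arrays centred on their median (which moved the median of all genes to 0.10), 134 and 31 with array weights, 276 and 32 with all 16 arrays in 1 fit, 36 and 12 without the genotype covariate, 210 and 51 with title range added, and 162 and 13 for a slope on Mapk14. With no filter, the mean of all probe sets, a trended robust prior, or a minimum change of 2-fold there were 0 and 0, as there were without MMTV-Cre 2 and p38a_MMTV-Cre 2 (chosen after the data were seen). A second quantile normalisation, which gives every array the same distribution of values, gave 0 and 1, as in the main fit. It left 252 genes at a limma adjusted p below 0.10, beside 588 in the main fit. Leaving out 1 array gave 0 to 168 higher and 0 to 49 lower calls. The 168 and 49 came without MMTV-Cre 1, and leaving out any of the other 7 gave 0 in both directions. The difference of the split between the genotypes gave 1 higher call with median centring, and the genotype and PyMT slope counts were 0 throughout. Runx1 reversed to -0.10 with a second quantile normalisation, -0.009 for the slope, -0.12 without MMTV-Cre 1 and -0.004 without MMTV-Cre 3. Cdkn3, Knstrn, Cenpa, Aurka and Tut4 were each called in 7 of 21 alternatives. The cause of these changes was not tested. The medians of the G2/M list ranged from 0.83, for the slope on Mapk14, to 1.51, and those of the respiratory chain from 0.17 to 0.42. The slope is per log2 unit of Mapk14 and not a difference between the sides. With single arrays left out, the G2/M median was 0.98 to 1.51. No paired analysis was possible because the labels give no replicate numbers.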
